A study of Mus musculus with 4 samples.

Results

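Serine can be made inside cells from the glycolytic intermediate 3-phosphoglycerate, and its side-chain carbon feeds the folate cycle. The transcripts of 8 enzymes of these routes were examined in group 2 innate lymphoid cells (ILC2) from the pancreatic islets of fasted and fed mice. ILC2 reside in tissues and release type 2 cytokines such as IL-5 and IL-13. The 8 genes were chosen by name with earlier results of these data known, and all 8 were among the 15835 genes of the deposited count table. They are Phgdh, Psat1 and Psph, which make serine; Shmt1 and Shmt2, which split serine into glycine and a folate-bound carbon; Mthfd2 and Mthfd1, which carry that carbon through the folate cycle; and Cth, which releases cysteine from cystathionine, itself built from serine and homocysteine.

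The study asked how fasting alters genes tied to ILC2 function. The groups compared held 4 fasted and 4 fed libraries, all from C57BL/6j mice with no other treatment named in the labels. The 2 columns of the count table numbered 2, for fasting and control, were left out. The length of the fast, the age and sex of the mice, and whether a library is 1 mouse or a pool were not given in the labels. A library is called by its group and its column number in the table, which is 1, 3, 4 or 5.

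In the serine route, PHGDH oxidises 3-phosphoglycerate, PSAT1 transfers an amino group onto the product and PSPH removes the phosphate. SHMT2 works in mitochondria, where MTHFD2 oxidises the carbon unit towards formate, while SHMT1 and MTHFD1 act in the cytosol. In many cell types Phgdh, Psat1, Shmt2 and Mthfd2 are targets of ATF4, a transcription factor induced by amino acid shortage, and activated lymphocytes are known to use serine-derived carbon for nucleotide synthesis. The exocrine acinar cells of the pancreas, which surround the islets and make digestive enzymes, also carry an active amino acid metabolism.

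Library totals ran from 2041697 to 9366807 counts in fasted libraries and from 1797504 to 25252366 counts in fed libraries. Of 18 ILC2 marker genes, all were in the table and 17 had a count in each of the 8 libraries, the exception being Rora. Their sum ran from 1547 to 6582 CPM of the library total in fasted libraries and from 1270 to 4440 in fed libraries. Acinar transcripts stood beside them: 24 acinar marker genes took 3.04%, 3.39%, 69.4% and 71.2% of counts in fasted libraries 1, 3, 4 and 5, against 42.8%, 48.9%, 74.2% and 66.4% in fed libraries 1, 3, 4 and 5. Fasted libraries 1 and 3 thus stood apart from the other 6 libraries, and 23 of these 24 genes still had a count in each library. On the same scale summed T cell markers ran from 45.3 to 170.4 CPM in fasted and from 22.0 to 55.6 CPM in fed libraries, and summed myeloid markers from 53.8 to 497.6 CPM in fasted and from 72.7 to 158.3 CPM in fed libraries. Most T cell marker counts were of Cd3g (1820 over the 8 libraries) and Lef1 (629), against 20 for Cd3d. Most myeloid marker counts were of Ccr2 (3205) and Cd74 (2417). The T cell and myeloid markers at 0 in a whole group were sparse. Cd8a had no count in any fasted library and 11 counts in all. Lyz2 (2 counts in all), Cd68 (5), S100a8 (3) and Csf1r (50, all in fasted library 1) had none in any fed library. In these bulk libraries, fewer cells of a type and less RNA per cell cannot be told apart.

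Psat1 was the enzyme whose libraries separated by feeding state. Its level in CPM (counts scaled to the library size, here the TMM-scaled size unless another is named) was 42.1, 54.6, 50.0 and 84.5 in fasted libraries 1, 3, 4 and 5. In fed libraries 1, 3, 4 and 5 it was 91.9, 132.9, 155.5 and 114.1 CPM. Every fasted library lay below every fed library. The means were 57.8 ± 18.6 CPM in fasted and 123.6 ± 27.1 CPM in fed libraries (SD, n = 4), a fitted log2 fold change of -1.10 ± 0.27 (SE), or 0.467-fold. The difference did not pass the threshold of 0.05 over all genes (edgeR, unadjusted p = 0.00189, Benjamini-Hochberg adjusted p = 0.54), and Psat1 ranked 26 by p among 7700 tested genes.

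No gene passed in the whole comparison. With edgeR, 0 of 7700 tested genes (0%) had an adjusted p under 0.05, while 338 (4.39%) had an unadjusted p under 0.05, 213 of them higher (2.77%) and 125 lower (1.62%) in fasted libraries. Of the 8 enzymes, 7 were tested and Shmt1 was too sparse. Of the 7, Psat1 had an unadjusted p under 0.05, and the other 6 did not. Fasted libraries lay wholly below fed libraries for 101 tested genes (1.31%), and Psat1 was the 1 enzyme among them. A negative log2 fold change was found for 5 of the 7, against 50.2% of all tested genes, and the median was -0.57 for the 7 and 0.00 for all tested genes. Without the acinar-poor fasted libraries 1 and 3 the median of the 7 was -0.39. In that fit Psat1, Phgdh, Shmt2 and Cth were negative, and Psph (0.004), Mthfd2 (0.32) and Mthfd1 (0.82) positive.

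No other fit called an enzyme, though the number with an unadjusted p under 0.05 varied. DESeq2 called 17 genes (0.221%), none of the 8 enzymes among them, and had an unadjusted p under 0.05 for Psat1 and for 4.57% of tested genes. Psat1 was also the 1 enzyme at that level without fasted libraries 1 and 3 (2.97% of tested genes) and with an acinar covariate (4.08%). Psat1 and Phgdh reached it without a filter on low counts (5.87%, with 0.00639% called). Psat1, Phgdh and Cth reached it with the column number as a replicate block (6.95%), and these 3 with Mthfd2 in limma-voom (9.27%). With library totals alone Cth reached it and Psat1 did not (2.97%, with 0.013% called).

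**Figure D1:**
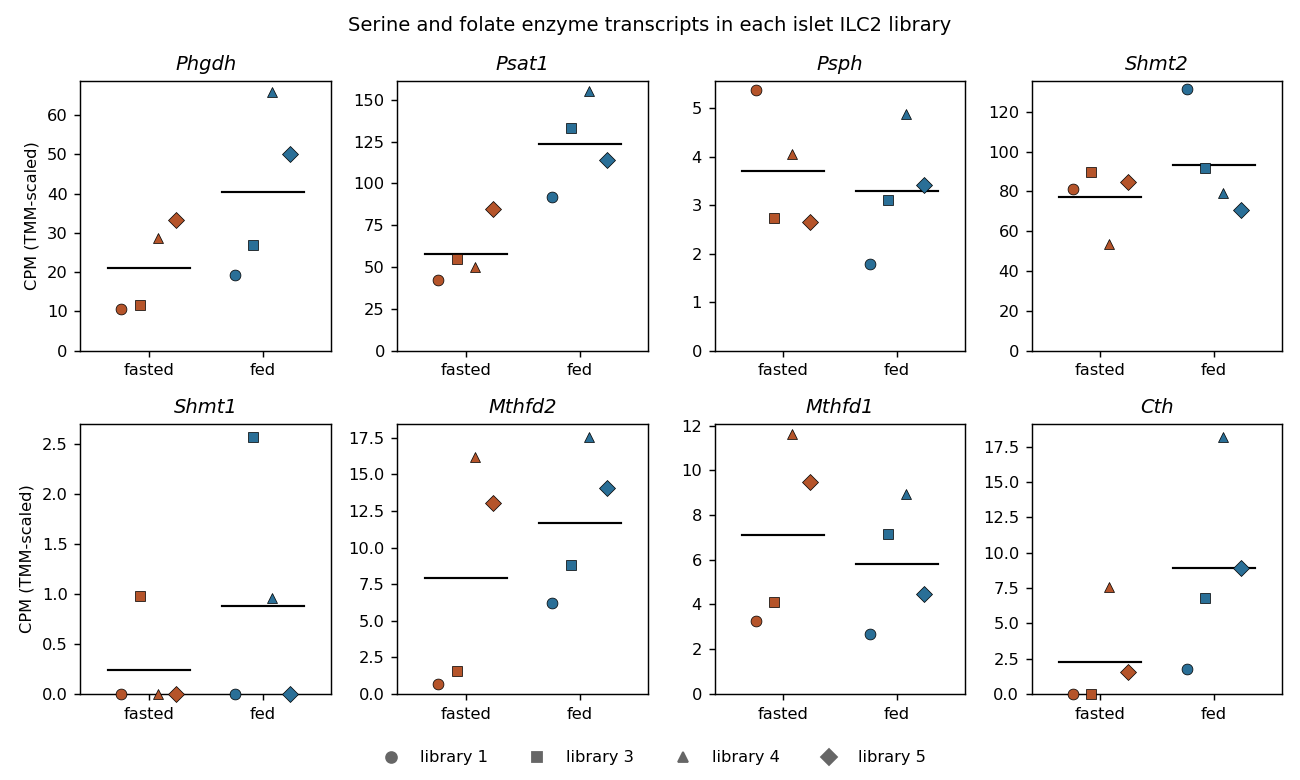
Level of each enzyme transcript (vertical axis, CPM over TMM-scaled library sizes, a separate linear scale per panel) in 4 fasted libraries on the left and 4 fed libraries on the right; marker shapes give the library number and horizontal bars the group means. Psat1 is the panel in which the groups do not overlap, and fasted libraries 1 and 3 are lowest for Phgdh, Mthfd2 and Cth.

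Phgdh, the first enzyme of the route, had lower fasted values with more overlap. It stood at 10.5, 11.7, 28.8 and 33.2 CPM in fasted libraries 1, 3, 4 and 5 and at 19.2, 26.9, 65.9 and 50.0 CPM in fed libraries 1, 3, 4 and 5. Each fasted library was below the fed library of the same number, but fasted libraries 4 and 5 were above fed libraries 1 and 3. The log2 fold change was -0.95 ± 0.48 (edgeR, unadjusted p = 0.073, adjusted p = 1.00). Being lower in each of the 4 same-number pairs was shared by 631 tested genes (8.19%), among them Phgdh, Psat1, Mthfd2 and Cth. Psph, the phosphatase that completes the route, showed no such order, at 5.38, 2.73, 4.06 and 2.65 CPM in fasted libraries and 1.78, 3.11, 4.88 and 3.43 CPM in fed libraries (1, 3, 4 and 5). Its groups overlapped throughout, its log2 fold change was 0.13 ± 0.51, and 3 of 4 pairs were lower in the fasted library. These values rest on 73 fasted and 103 fed counts in all.

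The promoters of the serine route enzymes are shown because Psat1 and Phgdh were lower in the fasted library of each pair and Psph was not. Given are the 100 bases before the RefSeq start on GRCm38.p6, minus strand, read 5′ to 3′, with capitals marking CCAAT or its reverse complement ATTGG. They lie at chr3:98339970-98340069 (Phgdh), chr19:15925060-15925159 (Psat1, the first of 2 listed starts) and chr5:129787254-129787353 (Psph).
Phgdh: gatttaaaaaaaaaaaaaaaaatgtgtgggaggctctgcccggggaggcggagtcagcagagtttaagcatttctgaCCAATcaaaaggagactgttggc
Psat1: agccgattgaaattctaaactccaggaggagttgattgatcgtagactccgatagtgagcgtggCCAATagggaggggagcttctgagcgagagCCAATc
Psph: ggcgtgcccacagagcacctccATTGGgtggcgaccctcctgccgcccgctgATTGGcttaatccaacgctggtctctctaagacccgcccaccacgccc

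RefSeq promoters (250 bases before to 50 after a start) were held for 7 of the 8 enzymes, Cth being the other, and were searched on both strands for TGATGNAA, the core of the C/EBP-ATF element, for TGACGTCA, the full cyclic AMP response element, and for CACGTG, the E-box. None of the 8 promoters of these 7 genes held any of them, against 3.97%, 1.79% and 7.15% of 32851 mouse promoters. No match says only that these letters are not in this window. CCAAT boxes were looked for after the sequences had been read, so their count is a description. In the 100 bases before the start Phgdh has 1, Psph 2, Mthfd2 3, and Shmt1 and Mthfd1 1 each. Psat1 has 2 before the start shown and 0 before its other listed start, and Shmt2 has 0. Of all promoters 18.9% hold at least 1 in that window.

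Shmt2, the mitochondrial serine hydroxymethyltransferase, had overlapping groups. It stood at 81.2, 89.6, 53.5 and 84.7 CPM in fasted libraries and at 131.6, 92.0, 79.1 and 70.6 CPM in fed libraries (1, 3, 4 and 5). Fed library 1 was the highest and fasted library 4 the lowest, with the other 6 libraries interleaved. The log2 fold change was -0.27 ± 0.26 (edgeR, unadjusted p = 0.32, adjusted p = 1.00). The SD of its log2 CPM was 0.34 in fasted and 0.39 in fed libraries, against 0.43 and 0.32 for Psat1. Shmt1, the cytosolic form, was barely detected, with 0, 5, 0 and 0 counts in fasted libraries and 0, 19, 13 and 0 counts in fed libraries (1, 3, 4 and 5). A count of 0 allows up to 0.702, 0.553 and 0.569 CPM in fasted libraries 1, 4 and 5 and up to 1.34 and 1.03 CPM in fed libraries 1 and 5, counting error only. No difference in Shmt1 was detectable at this depth.

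Mthfd2, the mitochondrial methylenetetrahydrofolate dehydrogenase, split the fasted group. It stood at 0.702, 1.56, 16.2 and 13.1 CPM in fasted libraries 1, 3, 4 and 5, against 6.25, 8.80, 17.6 and 14.0 CPM in fed libraries 1, 3, 4 and 5. Fasted libraries 1 and 3, on only 3 and 8 counts, lay below every fed library and fasted libraries 4 and 5 lay within the fed range. The log2 fold change was -0.57 ± 0.80 over all libraries (edgeR, adjusted p = 1.00). Its sign turned without fasted libraries 1 and 3, to 0.32 ± 0.48. Mthfd1, the cytosolic trifunctional folate enzyme, stood at 3.28, 4.10, 11.6 and 9.48 CPM in fasted libraries and at 2.68, 7.17, 8.94 and 4.45 CPM in fed libraries (1, 3, 4 and 5). Fasted libraries 4 and 5 lay above every fed library, a pattern shared by 431 tested genes (5.6%), and fasted libraries 1 and 3 lay within the fed range. Its log2 fold change was 0.26 ± 0.54, and 0.82 ± 0.55 without fasted libraries 1 and 3, neither called.

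Cth, the cystathionine gamma-lyase of the transsulfuration route, varied most. It had 0, 0, 41 and 8 counts in fasted libraries 1, 3, 4 and 5, or 0, 0, 7.56 and 1.52 CPM. Fed libraries 1, 3, 4 and 5 had 4, 50, 246 and 26 counts, or 1.78, 6.77, 18.2 and 8.91 CPM. The counts of 0 allow up to 0.702 CPM in fasted library 1 and 0.585 CPM in fasted library 3. Both limits are below the 1.78 CPM of fed library 1, but that value rests on 4 counts and has counting error too. Fasted library 4 lay above fed libraries 1 and 3, so the groups overlapped. The log2 fold change was -1.97 ± 1.21 (edgeR, unadjusted p = 0.14, adjusted p = 1.00) and -0.98 ± 0.86 without fasted libraries 1 and 3. It was -4.08 without fasted library 4 and -1.34 without fed library 4, the library with the highest Cth level.

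The acinar share moved with several of these values. Phgdh, Mthfd2 and Cth were all lowest in fasted libraries 1 and 3, where acinar markers were at 3.04% and 3.39% of counts, and all highest in fed library 4, where they were at 74.2%. Within the fed group, too, Phgdh, Mthfd2 and Cth were lower in libraries 1 and 3, with 42.8% and 48.9%, than in libraries 4 and 5, with 74.2% and 66.4%. Psat1 was also lowest in fasted library 1 and highest in fed library 4, but fasted library 4 was its next lowest. Shmt2 did not follow that order, and its highest level was in fed library 1. The part of acinar RNA in these levels was not tested.

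**Figure D2:**
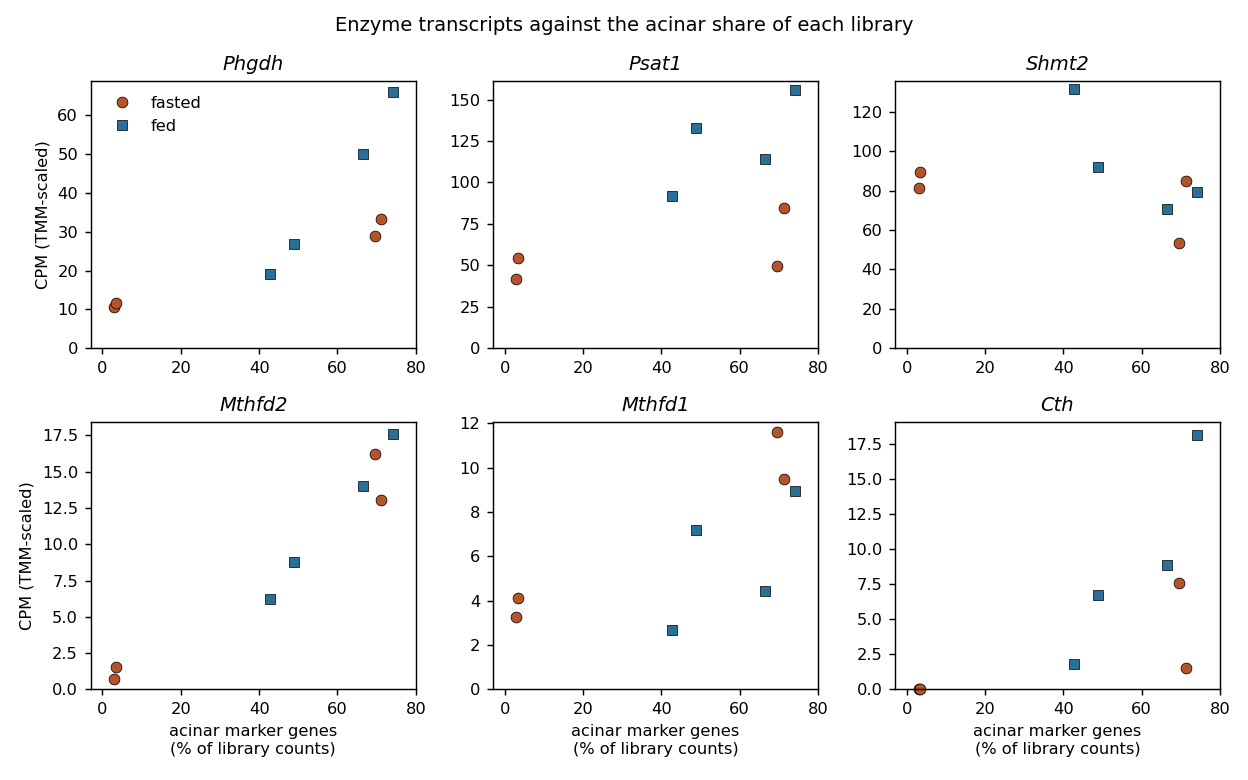
Level of 6 enzymes (vertical axis, CPM over TMM-scaled library sizes) against the share of library counts taken by 24 acinar marker genes (horizontal axis, percent); circles are fasted and squares fed libraries, 4 each. Phgdh, Mthfd2 and Cth are low in the fasted libraries at 3.04% and 3.39% and high in fed library 4 at 74.2%, while Psat1 in fasted libraries 4 and 5 lies below its fed levels; no fed library lies near the low end.

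Psat1 kept its direction among libraries rich in acinar RNA. Fasted libraries 4 and 5, at 69.4% and 71.2% acinar markers, had 50.0 and 84.5 CPM and lay below all 4 fed libraries, the lowest of which had 91.9 CPM. That pattern was shared by 414 tested genes (5.38%). Without fasted libraries 1 and 3 the log2 fold change of Psat1 was -0.88 ± 0.35 (edgeR, unadjusted p = 0.028, adjusted p = 1.00), and with an acinar covariate it was -0.89 ± 0.30. For Phgdh the same settings gave -0.39 ± 0.47 and -0.38 ± 0.41, and fasted libraries 4 and 5 lay within its fed range. Whether the Psat1 difference is larger than that of Phgdh was not tested.

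**Figure D3:**
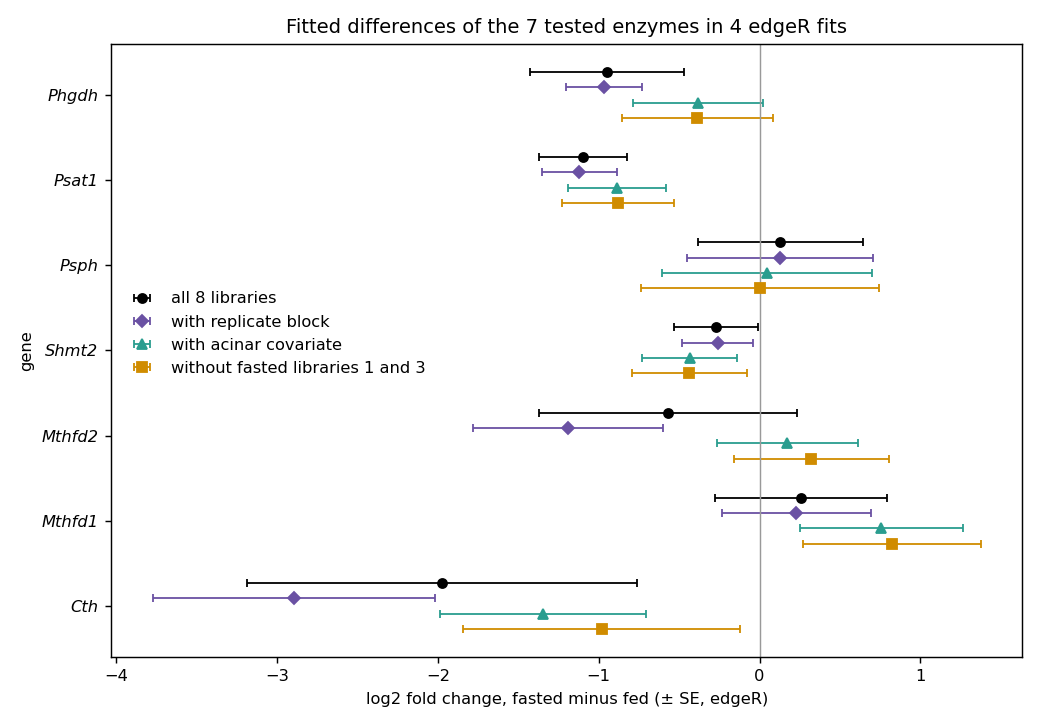
Fitted log2 fold change, fasted minus fed, of the 7 tested enzymes (horizontal axis; bars are SE) in 4 edgeR fits, from top to bottom all 8 libraries, with the replicate number as a block, with an acinar covariate, and without fasted libraries 1 and 3. Psat1 stays between -1.12 and -0.88, Mthfd2 runs from -1.19 to 0.32 and Cth from -2.90 to -0.98.

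Scaling mattered for which enzyme separated. Over plain library totals, Psat1 ran from 34.6 to 109.9 CPM in fasted libraries and from 79.4 to 167.7 in fed libraries, with overlap. Phgdh on that scale ran from 18.7 to 23.6 in fasted and from 23.9 to 35.3 in fed libraries, without overlap, as did 28 tested genes (0.364%). Library totals hold the acinar counts, and on that scale the median log2 fold change of all tested genes was 0.51. Relative to that median, Psat1 was at -1.17, Phgdh at -1.11, Mthfd2 at -1.18, Cth at -2.50, Shmt2 at -0.28, Mthfd1 at -0.04 and Psph at 0.35.

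By root mean square difference between profiles of log2 CPM, each centred on its own mean over the 8 libraries, the genes nearest Psat1 among 7699 others were Inpp4a (0.20), Mecr (0.27), Tmem238 (0.28), Hist1h2bc (0.28) and Jagn1 (0.29). Mecr encodes a reductase of mitochondrial fatty acid synthesis. Its level was 5.38, 5.07, 9.03 and 9.10 CPM in fasted libraries and 13.4, 14.7, 19.1 and 16.1 CPM in fed libraries (1, 3, 4 and 5), and its groups did not overlap. Mecr was picked for its likeness to Psat1, whose groups also separate, so this order is a description only. Inpp4a rests on 28 fasted and 74 fed counts in all. Of the other enzymes Phgdh was nearest to Psat1, at rank 346 (0.54), followed by Shmt2 at rank 1013, and Cth was farthest, at rank 7248 (1.62).

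Genes on either side of the serine route were read from lists of neighbouring pathways, in none of which did edgeR with TMM scaling call a gene. The glycolytic enzymes around 3-phosphoglycerate, the substrate of PHGDH, had 5 of 6 tested, 4 positive and 1 negative, with a median log2 fold change of 0.01, and of -0.07 without fasted libraries 1 and 3. Phosphoglycerate mutase Pgam1 averaged 49.3 ± 6.49 CPM in fasted and 56.4 ± 20.2 CPM in fed libraries (SD, n = 4). Pgk1 and the pyruvate kinase gene Pkm had log2 fold changes of 0.15 ± 0.23 and 0.16 ± 0.33. Of the carriers that bring serine and glycine into cells, 5 of 9 were tested, 2 positive and 3 negative, with a median of -0.06; without fasted libraries 1 and 3 none of the 5 was negative and the median was 0.15. Slc1a5, a neutral amino acid exchanger, averaged 67.5 ± 13.8 CPM in fasted and 70.4 ± 10.8 CPM in fed libraries, Slc38a1 had a log2 fold change of 0.19 ± 0.46 and Slc1a4 one of -0.52 ± 1.19.

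Among genes that use or break down serine, 8 of 12 were tested, 5 positive and 3 negative, with a median of 0.09, and of 0.36 over 9 genes without fasted libraries 1 and 3. Sptlc1, a subunit of the enzyme that joins serine to palmitoyl-CoA in sphingolipid synthesis, was at 19.7, 20.5, 17.9 and 30.0 CPM in fasted libraries and at 52.2, 42.1, 34.6 and 33.2 CPM in fed libraries (1, 3, 4 and 5). The groups did not overlap, with a log2 fold change of -0.88 ± 0.27 (edgeR, unadjusted p = 0.0078, adjusted p = 0.79). Serinc3, a membrane protein of the serine incorporator family, went the other way without overlap, at 848 ± 49.3 CPM in fasted and 565 ± 94.8 CPM in fed libraries (0.59 ± 0.19, adjusted p = 0.87). All fasted libraries above all fed libraries was the order of 170 tested genes (2.21%). Serinc5 had a log2 fold change of 1.30 ± 0.72 with overlapping groups. It rests on 14, 21, 25 and 5 counts in fasted and 1, 14, 27 and 1 counts in fed libraries (1, 3, 4 and 5).

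Other folate genes had 10 of 20 tested, with 3 positive and 7 negative values and a median of -0.20, and of -0.01 over 11 genes without fasted libraries 1 and 3. Slc46a1, the proton-coupled folate transporter, was at 0, 1.56, 0.737 and 0.569 CPM in fasted libraries and at 8.48, 2.84, 7.69 and 3.08 CPM in fed libraries (1, 3, 4 and 5). All fasted libraries were below all fed libraries, with a log2 fold change of -2.88 ± 0.81 (edgeR, unadjusted p = 0.0045, adjusted p = 0.72). The fasted values of Slc46a1 rest on 0, 8, 4 and 3 counts. Mthfd1l, the mitochondrial enzyme that follows MTHFD2 and releases formate, averaged 6.56 ± 2.12 CPM in fasted and 6.36 ± 1.22 CPM in fed libraries. Aldh1l2, the mitochondrial formyltetrahydrofolate dehydrogenase, was at 0, 0, 11.6 and 0 CPM in fasted libraries and at 2.68, 3.92, 11.8 and 1.37 CPM in fed libraries, so that 1 fasted library carried all of its fasted counts. Its cytosolic counterpart Aldh1l1 was at 0.234, 0, 4.24 and 4.93 CPM in fasted libraries and at 1.78, 0.947, 11.2 and 8.56 CPM in fed libraries. The folate hydrolase Ggh was at 4.21, 5.66, 84.6 and 61.6 CPM in fasted libraries and at 47.7, 41.7, 142.7 and 64.7 CPM in fed libraries. Both had their 2 lowest fasted values in the libraries poor in acinar markers. The mitochondrial folate carrier Slc25a32 was below the filter on low counts.

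For glycine cleavage and mitochondrial serine import, 7 of 10 listed genes were tested, 1 positive and 6 negative, with a median of -0.51, and of -0.11 over 8 genes without fasted libraries 1 and 3. Sfxn1, the mitochondrial serine carrier, was at 7.95, 11.9, 21.8 and 10.4 CPM in fasted libraries and at 17.4, 14.1, 33.0 and 15.1 CPM in fed libraries. It was lower in the fasted library of each pair, with a log2 fold change of -0.62 ± 0.40 and overlapping groups. Sfxn2 and the dihydrolipoamide dehydrogenase Dld had -0.51 ± 0.53 and -0.55 ± 0.53. Purine synthesis, which takes up folate carbon, had 10 of 11 tested, 2 positive and 8 negative, with a median of -0.12, and of 0.05 over 11 genes without fasted libraries 1 and 3. Its named members Adssl1, Prps2 and Impdh2 had log2 fold changes of 0.32 ± 0.26, -0.40 ± 0.34 and -0.19 ± 0.25.

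In the methionine cycle and transsulfuration, 13 of 19 genes were tested, 7 positive and 6 negative, with a median of 0.02, and of 0.15 over 15 genes without fasted libraries 1 and 3. Cbs, the cystathionine beta-synthase whose product CTH cleaves, was at 0.468, 0, 56.8 and 48.2 CPM in fasted libraries and at 18.3, 35.6, 130.4 and 108.2 CPM in fed libraries (1, 3, 4 and 5). As with Cth, fasted libraries 1 and 3 were at or near 0 and fed libraries 1 and 3 were below fed libraries 4 and 5. Its log2 fold change was -1.47 ± 1.43. Mat2a, which makes S-adenosylmethionine, averaged 138 ± 32.4 CPM in fasted and 174 ± 26.7 CPM in fed libraries, a log2 fold change of -0.33 ± 0.23. The persulfide dioxygenase gene Ethe1 had -0.47 ± 0.33 and the methionine synthase reductase gene Mtrr 0.73 ± 0.54.

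Glutathione genes had 5 of 9 tested, all 5 negative, with a median of -0.26, and of -0.09 without fasted libraries 1 and 3, where 3 of 5 were negative. Chac1, which degrades glutathione and is an ATF4 target, was at 0.702, 0.390, 12.7 and 3.60 CPM in fasted libraries and at 34.8, 83.6, 100.1 and 55.1 CPM in fed libraries (1, 3, 4 and 5). Its groups did not overlap (log2 fold change -3.95 ± 0.93, edgeR, adjusted p = 0.61), and it was called lower by DESeq2 (adjusted p = 9.3e-04) and by edgeR with library totals alone (adjusted p = 0.0051). The fasted values of Chac1 rest on 3, 2, 69 and 19 counts, the lowest in libraries 1 and 3, poor in acinar markers. With TMM scaling edgeR called no glutathione gene, with or without fasted libraries 1 and 3. With library totals alone 2 of the 5 glutathione genes were negative, against a median of 0.51 over all tested genes. Gclm and Gsr had -0.26 ± 0.51 and -0.15 ± 0.34.

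Genes of the amino acid response had values on both sides of 0. Of 25 genes 19 were tested, 7 positive and 12 negative, with a median of -0.12, and of 0.06 over 22 genes without fasted libraries 1 and 3. None of the 19 had groups that did not overlap. Atf4 itself was at 43.5, 45.9, 49.6 and 48.2 CPM in fasted libraries and at 38.8, 53.7, 97.7 and 55.8 CPM in fed libraries (1, 3, 4 and 5), a log2 fold change of -0.40 ± 0.28. Fed library 4 was the highest, and fasted values lay within the fed range. The 3 members with the smallest p had higher fasted means: the phosphatase subunit Ppp1r15a (0.66 ± 0.25), Cebpb (0.92 ± 0.37) and Ddit3, which encodes CHOP (1.01 ± 0.69), none called. Ppp1r15a was at 561, 552, 280 and 411 CPM in fasted libraries and at 263, 272, 245 and 365 CPM in fed libraries. Cebpb was at 923, 537, 265 and 400 CPM against 206, 280, 227 and 408 CPM. Both had their highest fasted values in libraries 1 and 3, poor in acinar markers. Ddit3 had 5 counts in fasted library 1. Its p was close to that of Atf3, at -0.69 ± 0.48 (edgeR, unadjusted p = 0.17 and 0.18).

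**Figure D4:**
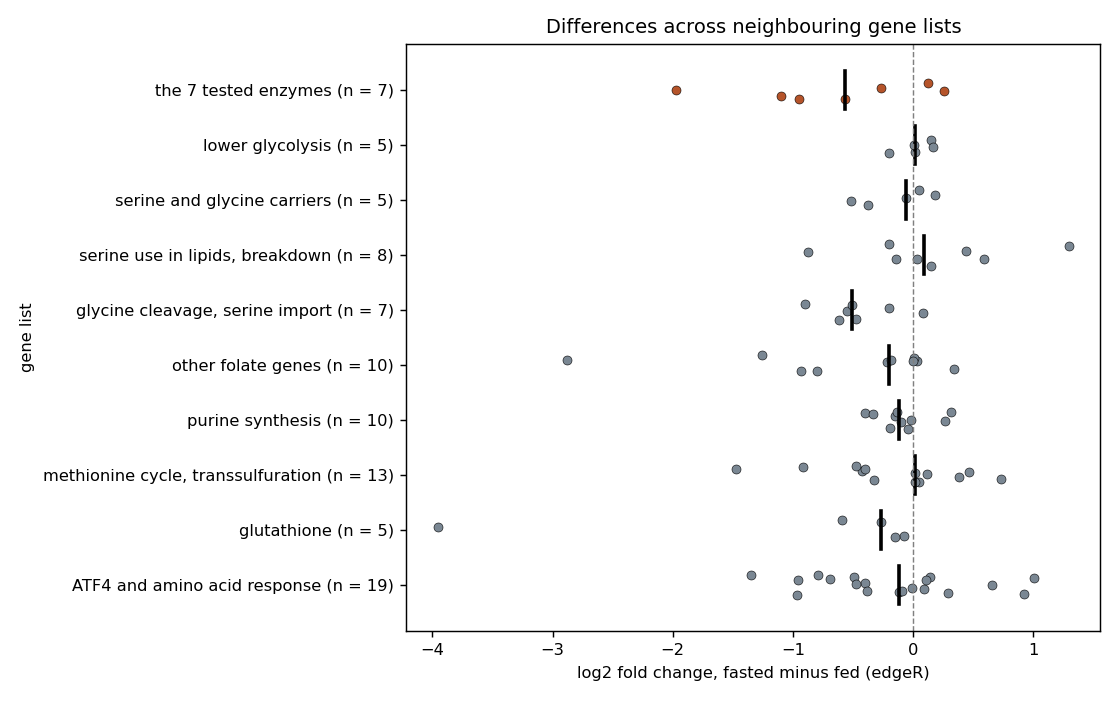
Log2 fold change, fasted minus fed, of each tested gene (points; horizontal axis, edgeR) in the 7 tested enzymes and 9 neighbouring gene lists (rows, with the number of genes tested); thick bars are list medians and the dashed line the median of all tested genes, 0.00. Medians lie between -0.57 and 0.09, with single genes such as Chac1 at -3.95 and Slc46a1 at -2.88 far to the left.

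The 8 genes lie on 7 mouse chromosomes, all on the minus strand except Mthfd1. In GENCODE M21 on mm10, Psat1 covers chr19:15904678-15947337, Phgdh chr3:98313170-98339990, Shmt2 chr10:127517123-127522444 and Mthfd2 chr6:83305691-83325908. Psph lies at chr5:129765558-129787449, Shmt1 at chr11:60788104-60811718, Mthfd1 at chr12:76255298-76319803 and Cth at chr3:157894248-157925077. Apart from Phgdh, each overlaps another annotated gene. A further annotated transcript lies on the same strand within Mthfd2 (Gm43890) and within Cth (Gm43314), and the rule by which their reads were assigned was not given in the labels. At their 3′ ends Shmt2 meets Ndufa4l2 and Shmt1 meets Smcr8 on the opposite strand, which bears on counts if strand was not used.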

How the data were processed

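The authors' table holds raw counts, as whole numbers per gene. Per the labels' protocols RNA was taken up in Trizol and sequenced by CEL-seq2, which reads 3′ ends. STAR, edgeR and mm10 are named in the submitters' processing notes; whether reads or molecular identifiers were counted was not given there. Since the 4 multiplexed files mix both treatments, each library's treatment came from its column name, with control taken as fed. The 2 columns of values numbered 2, for fasting and control, were not used. No label says that libraries are separate mice, so the p-values cover the spread between these libraries alone, and part of it may be technical.

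The 8 genes and all lists were chosen with earlier results of these data known. Genes were fitted with edgeR 4.0.16 in R 4.3.3 (filterByExpr, TMM, robust quasi-likelihood, two-sided), which kept 7700 of 15835 genes; 11 ERCC rows with 20 counts were left out. P-values were adjusted by Benjamini-Hochberg over all tested genes, with a threshold of 0.05. SE is the log2 fold change over the root of F. Limits for a count of 0 use 3 counts and cover counting error only. From each list the 3 genes with the smallest p were named, plus Atf4, Mthfd1l, Aldh1l2, Slc25a32 and Cbs, and the 5 genes nearest Psat1. Marker lists are given as sums, with some single markers named for their counts. Across all lists 5 older symbols were matched by synonym. Alternatives were other scaling and filters, DESeq2 1.42.0, limma-voom (limma 3.58.1), a replicate block, an acinar covariate and libraries left out.

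Same-numbered libraries had deviations from their group means that correlated at 0.23 (1), 0.14 (3), 0.50 (4) and 0.13 (5), all above 0.1. Same-number pairs were therefore compared, although no label gives the meaning of the numbers. The main edgeR fit did not pair libraries, and the replicate block was run as an alternative. In both groups libraries 1 and 3 also had lower acinar shares than libraries 4 and 5, so like numbers may share that too. Of the unlike-numbered combinations, fasted 5 with fed 4 (0.22) and fasted 3 with fed 1 (0.20) exceeded some of these. The smallest chi-square per gene between libraries of a group was 13.6, for fasted 1 with 3, so all were kept separate. Fasted 4 with 5 was at 36.9, and the other fasted combinations ran from 377 to 474. This measure compares libraries with counting noise alone and cannot show that they are separate mice.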

Additional observations from a re-analysis of the deposited data

How the results depend on the processing

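None of the 7 tested enzymes was called under any of the 18 alternatives, and the adjusted p of Psat1 ran from 0.11 (DESeq2) to 1.00. Psat1, Phgdh and Cth stayed negative in all 18. With a library left out Psat1 ran from -1.34 to -0.97, Phgdh from -1.26 to -0.61 (without fed library 4), Mthfd2 from -1.21 (without fasted library 4) to -0.20 (without fasted library 1) and Cth from -4.08 to -1.34. Limma-voom put Mthfd2 at -1.64 and Cth at -4.50, against -0.57 and -1.97 with edgeR. The median of the 7 ran from -1.04 (without fasted library 4) to -0.30 (without fasted library 1). The signs that turned were those of Psph (-0.072 with limma-voom, and with a library left out between -0.10, fasted 1, and 0.39, fed 4, with -0.05 for fed 1), Shmt2 (0.23 with library totals alone), Mthfd2 (0.17 with the acinar covariate and 0.32 without fasted libraries 1 and 3) and Mthfd1 (-0.21 with limma-voom, and with a library left out between -0.10, fasted 4, and 0.54, fed 4); for these the cause was not tested. Over all genes the 0 higher and 0 lower calls became 12 and 5 with DESeq2, and 1 lower call was made with library totals alone (Chac1) and 1 without a filter on low counts. Genes with an unadjusted p under 0.05 numbered 338, against 919 of 15661 without a filter, 714 with limma-voom, 561 without fasted library 4 and 535 with the replicate block. The replicate block called 0 genes and changed no call among the enzymes and lists; with it Psat1 was at -1.12 ± 0.23, Phgdh at -0.97 ± 0.24 (unadjusted p = 0.0035, adjusted p = 0.49), Mthfd2 at -1.19 and Cth at -2.90. Without a filter Shmt1 had a log2 fold change of -1.84 (unadjusted p = 0.30) on 37 counts in all. Of the 8 enzymes Shmt1 was below the filter on low counts.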
